A study of Mus musculus with 16 samples.

Results

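The RNA-Seq counts were read for 9 genes that make, cut, take up or bind hyaluronan, out of 55414 gene identifiers counted in each library. The genes were matched by symbol, and all 9 were found. They comprise the synthases *Has1*, *Has2* and *Has3*, the hyaluronidases and related hyaluronan-degrading genes *Hyal1*, *Hyal2*, *Cemip* and *Cemip2*, the receptor *Cd44*, and *Tnfaip6*, which encodes the secreted hyaluronan-binding protein TSG-6. TNFα changed 8 of the 9 in control cells, where it changed 44.2% of all genes tested. In *Notch2*tm1.1Ecan against control cells *Tnfaip6* was called higher with TNFα, where 9.97% of all genes were called. With vehicle *Has2* was called higher and *Hyal1* lower, where 10.5% of all genes were called. The *Hyal1* call was lost without control vehicle replicate 1 or without *Notch2*tm1.1Ecan vehicle replicate 4.

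Hyaluronan is an unsulfated glycosaminoglycan that is built at the plasma membrane by the HAS enzymes from UDP-glucuronic acid and UDP-N-acetylglucosamine and is extruded into the matrix as it grows. In cartilage it forms the backbone to which aggrecan is fixed by link protein, and CD44 anchors it to the chondrocyte surface. It is turned over by CEMIP and the hyaluronidases, and TSG-6, a protein induced in inflamed joints, transfers heavy chains from inter-alpha-inhibitor onto it.

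Chondrocyte-enriched cells came from the epiphyses of limb long bones of newborn mice, male and female pooled, and were cultured in monolayer. *Notch2*tm1.1Ecan mice were heterozygous for a germline allele with a stop codon that removes the PEST domain of NOTCH2 and prolongs its activity, and control cells (labelled wild type) came from littermates on the same C57BL/6 background. For 6 h both genotypes received PBS as vehicle or 50 ng/ml of TNFα, with 4 libraries in each of the 4 groups. The libraries are named biological replicates, but whether each came from separate animals is not given, so that p values measure the spread between these libraries. The annotation states that serum was removed for the TNFα groups only, whereas the study's text gives it for both treatments. If the annotation holds, TNFα and the removal of serum cannot be told apart. The mutant allele is carried by every cell of the culture and is not restricted to chondrocytes.

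The libraries held 3439726 to 44237300 counts on genes (median 17062419), and *Notch2*tm1.1Ecan TNFα replicate 4 was the shallowest. The first principal component (80.2% of the variance) set vehicle libraries apart from TNFα libraries. Control vehicle replicate 4 lay at 16.6 on it and the other 7 vehicle libraries between 45.8 and 48.2. The summed level of 10 TNFα response genes was 1191 CPM (counts per library size after TMM scaling) in that library and 170 to 184 CPM in the other 3 control vehicle libraries. In control TNFα replicate 4 the sum was 6007 CPM, below the 6932 to 7568 CPM of the other 3. TNFα in control cells and the interaction were therefore also fitted without both, and each genotype comparison without the one it uses.

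All 16 chondrocyte markers listed, such as *Col2a1* and *Sox9*, were detected in every group. Their summed level was 51999 to 55794 CPM in control vehicle, 32444 to 37664 in *Notch2*tm1.1Ecan vehicle, 37701 to 44709 in control TNFα and 20465 to 23334 in *Notch2*tm1.1Ecan TNFα libraries. With either treatment 16 of 16 were called lower in *Notch2*tm1.1Ecan cells, and with TNFα 13 of 16 were called lower in either genotype. The 16 macrophage markers summed to 79.4 to 86.3 CPM in control vehicle, where *Cd163* was at 0, and to 153 to 180 in *Notch2*tm1.1Ecan vehicle libraries. With TNFα they summed to 93.0 to 110 CPM in control and 199 to 237 in *Notch2*tm1.1Ecan libraries. Of the 16, 13 were called higher in *Notch2*tm1.1Ecan cells with vehicle and 14 with TNFα. The 9 fibroblast and perichondrium markers summed to 31775 to 34730 CPM in control vehicle, 36213 to 38878 in *Notch2*tm1.1Ecan vehicle, 31091 to 34116 in control TNFα and 34787 to 42681 in *Notch2*tm1.1Ecan TNFα libraries. *Col1a1*, *Col1a2* and *Col3a1* held most of these counts. The 9 markers went both ways in *Notch2*tm1.1Ecan cells, with 4 called higher and 2 lower with vehicle and 5 higher and 1 lower with TNFα. The 8 endothelial markers summed to 8.79 to 14.0 CPM in the control groups and 17.8 to 27.3 CPM in the mutant groups, with 4 called higher with vehicle and 3 with TNFα. The 5 synovial lining markers summed to 588 to 715 CPM in control vehicle, 369 to 413 in *Notch2*tm1.1Ecan vehicle, 857 to 985 in control TNFα and 642 to 709 in *Notch2*tm1.1Ecan TNFα libraries. Of these 5 markers, 3 were called lower in *Notch2*tm1.1Ecan cells with vehicle and 2 with TNFα, and 0 higher. Of all genes, 10.5% were called between genotypes with vehicle and 9.97% with TNFα. In such bulk samples fewer cells of a type and less RNA per cell cannot be told apart, and the part of these markers in the differences between genotypes was not tested.

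To show the sequence upstream of members that moved with TNFα in both genotypes, the 250 bases before the start site are shown for *Tnfaip6* and *Cd44*, which rose, and *Cemip*, which fell. They are from RefSeq (GRCm38.p6), written 5′ to 3′ on the strand of the gene, for chr2:52037863-52038112 (plus strand, *Tnfaip6*), chr2:102901666-102901915 (minus strand, *Cd44*) and chr7:84086506-84086755 (minus strand, *Cemip*). Capitals mark letters that match a motif searched on both strands, namely GGGA and CC with any 4 bases between them for κB, GTGGGAA for RBPJ, the DNA partner of the Notch intracellular domain, and TGANTCA for AP-1.
*Tnfaip6*: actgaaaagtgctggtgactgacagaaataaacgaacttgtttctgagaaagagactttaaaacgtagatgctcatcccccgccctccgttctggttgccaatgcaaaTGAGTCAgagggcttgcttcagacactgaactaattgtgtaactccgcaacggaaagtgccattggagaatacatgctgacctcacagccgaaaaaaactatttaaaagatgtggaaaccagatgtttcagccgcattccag
*Cd44*: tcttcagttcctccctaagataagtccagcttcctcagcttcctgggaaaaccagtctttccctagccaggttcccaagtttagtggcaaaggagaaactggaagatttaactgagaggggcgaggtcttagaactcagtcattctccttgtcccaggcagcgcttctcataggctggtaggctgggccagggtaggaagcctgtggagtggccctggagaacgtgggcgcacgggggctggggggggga
*Cemip*: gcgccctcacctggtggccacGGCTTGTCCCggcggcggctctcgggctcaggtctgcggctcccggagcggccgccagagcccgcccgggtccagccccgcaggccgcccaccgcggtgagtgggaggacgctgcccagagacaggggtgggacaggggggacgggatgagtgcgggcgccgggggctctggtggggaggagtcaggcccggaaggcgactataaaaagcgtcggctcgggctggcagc

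The capitals in *Tnfaip6* are an AP-1 match 142 to 136 bases before the start, and those in *Cemip* are a κB match on the opposite strand 229 to 220 bases before it. No match of the 3 motifs was found in the 250 bases of *Cd44*, *Has1* or *Hyal1*, and *Hyal2* held a κB match 238 to 229 bases before its start. Of 32851 promoters of the same length, 17.6% hold a κB match, 5.42% an RBPJ match and 6.75% an AP-1 match. The matches are descriptions of letters, none overlapped another, and binding was not measured here. 6 of the 9 members had an entry, and *Has2*, *Has3* and *Cemip2* are named only.

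To compare genes with each other, CPM were divided by the exon length in kilobases. In control vehicle cells *Cd44* was at 22.2 ± 1.56 CPM per kilobase (SD, n = 4) and *Cemip*, which encodes a secreted protein that cuts hyaluronan, at 21.2 ± 1.29. The libraries of this pair overlapped. *Hyal2*, a hyaluronidase anchored to the cell surface, followed at 7.67 ± 0.323, and *Cemip2*, a membrane-bound relative of *Cemip*, at 5.89 ± 0.417. *Has2* at 3.27 ± 0.329 and *Tnfaip6* at 2.98 ± 0.0814 overlapped, and *Hyal1*, a lysosomal hyaluronidase, was at 2.59 ± 0.107. *Has1* and *Has3* were lowest, at 0.119 ± 0.0262 and 0.0219 ± 0.0143 CPM per kilobase.

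The order changed with TNFα. In *Notch2*tm1.1Ecan TNFα cells *Cd44* was first at 34.5 ± 1.85 CPM per kilobase (SD, n = 4) and *Tnfaip6* second at 13.4 ± 0.457, with no library in common. *Cemip* at 9.03 ± 0.415 and *Hyal2* at 9.02 ± 0.835 overlapped, as did *Hyal1* at 3.06 ± 0.689 and *Has2* at 2.39 ± 0.263. *Cemip2* lay between these pairs at 4.80 ± 0.118. In control TNFα cells the order was *Cd44*, *Cemip* and *Hyal2*, *Tnfaip6* and *Cemip2*, *Hyal1*, *Has2*, *Has1* and *Has3*. Overlapping neighbours there were *Cemip* at 10.0 ± 2.18 with *Hyal2* at 8.88 ± 0.476, and *Tnfaip6* at 6.64 ± 0.865 with *Cemip2* at 4.82 ± 0.424. In *Notch2*tm1.1Ecan vehicle cells the order was *Cemip* and *Cd44*, *Hyal2*, *Cemip2* and *Has2*, *Tnfaip6*, *Hyal1*, *Has1* and *Has3*. *Cemip* overlapped *Cd44*, *Has1* overlapped *Has3*, and *Has2* at 5.38 ± 0.436 overlapped *Cemip2* at 6.33 ± 0.395.

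**Figure D1:**
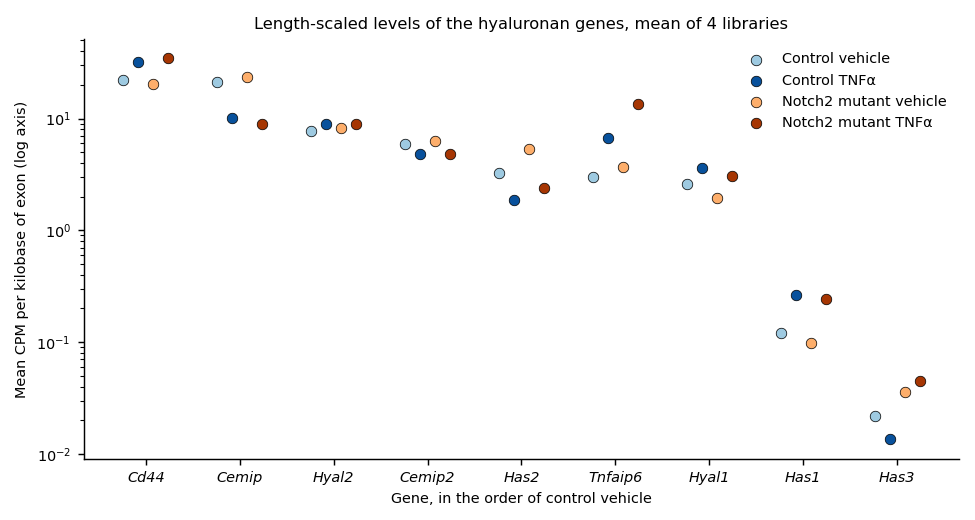
Mean level of each gene in CPM per kilobase of exon (log axis) in the 4 groups, each point the mean of 4 libraries, with genes in the order of control vehicle. *Tnfaip6* is the gene that climbs most in rank with TNFα, from 3.69 with vehicle to 13.4 with TNFα in *Notch2*tm1.1Ecan cells, and *Has1* and *Has3* stay under 0.3 in every group.

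*Has2*, the main synthase of cartilage (chr15:56528342-56557999 of GRCm39, minus strand), fell with TNFα in both genotypes and was higher in *Notch2*tm1.1Ecan cells with vehicle. In the 4 control vehicle libraries it was at 16.2, 17.8, 14.0 and 17.1 CPM, and with TNFα at 8.11, 9.60, 8.34 and 11.0 CPM. In the mutant cells it was at 24.4, 27.7, 25.8 and 29.3 CPM with vehicle and at 12.3, 11.3, 10.5 and 13.5 CPM with TNFα. The treatment groups did not overlap in either genotype, and every *Notch2*tm1.1Ecan vehicle library was above every control vehicle library.

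The fall of *Has2* with TNFα was -0.80 on the log2 scale in control cells (SE 0.11, adjusted p = 4.26e-06) and -1.21 in *Notch2*tm1.1Ecan cells (SE 0.097, adjusted p = 3.69e-11). Without both replicate 4 control libraries it was -0.87. The 2 TNFα effects differed by -0.41 (95% interval -0.70 to -0.12 from 1.96 SE), which did not pass after adjustment (adjusted p = 0.307). Between genotypes *Has2* was higher in *Notch2*tm1.1Ecan cells by 0.73 with vehicle (SE 0.086, adjusted p = 1.92e-06). With TNFα the difference was 0.33 (SE 0.13, adjusted p = 0.106) and the groups overlapped. Without control TNFα replicate 4 it was 0.42 and passed (adjusted p = 0.0314). The TNFα and the genotype comparisons share libraries and are not independent. An antisense gene, *Has2os*, overlaps *Has2* and held 439 counts over the 16 libraries against 4938 for *Has2*, and the strand setting of the counting is not given.

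*Has1* (chr17:18063585-18075467, minus strand) was scarce, with 2 to 28 counts per library. It was at 0.663, 0.381, 0.579 and 0.536 CPM in control vehicle and 1.18, 1.54, 0.933 and 1.15 CPM in control TNFα libraries. The corresponding values in *Notch2*tm1.1Ecan cells were 0.138, 0.513, 0.519 and 0.598 CPM with vehicle and 1.52, 0.877, 1.17 and 0.828 CPM with TNFα. The TNFα libraries were above the vehicle libraries in each genotype.

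*Has1* rose with TNFα by 1.13 on the log2 scale in control cells (SE 0.34, adjusted p = 0.00856) and by 1.26 in *Notch2*tm1.1Ecan cells (SE 0.38, adjusted p = 0.00857). The second call was lost without *Notch2*tm1.1Ecan TNFα replicate 1 (1.06, adjusted p = 0.0548). Between genotypes the difference was -0.21 with vehicle (95% interval -1.04 to 0.61) and -0.063 with TNFα (-0.68 to 0.55). Neither passed, and at this depth a difference within those intervals could be missed. *Has3* (chr8:107596874-107611198, plus strand) had 0 to 12 counts per library and passed no test. All 4 control TNFα libraries held 3 counts or fewer, which is the limit a count of 0 allows, and 1 of them held 0, which allows up to 0.181 CPM. No fold change against that group is given.

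Scaled by length, *Has2* made up 95.8 ± 1.37% of the 3 synthases in control vehicle and 97.6 ± 0.639% in *Notch2*tm1.1Ecan vehicle cells (SD, n = 4). With TNFα its share was 86.9 ± 2.65% and 89.2 ± 2.91%. The share of *Has1* was 3.55 ± 0.949% and 1.74 ± 0.753% with vehicle, and 12.5 ± 2.17% and 9.13 ± 2.58% with TNFα. The lowest *Has1* share with TNFα was 10.3% in control and 6.23% in *Notch2*tm1.1Ecan cells, above the highest with vehicle of 4.30% and 2.18%.

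**Figure D2:**
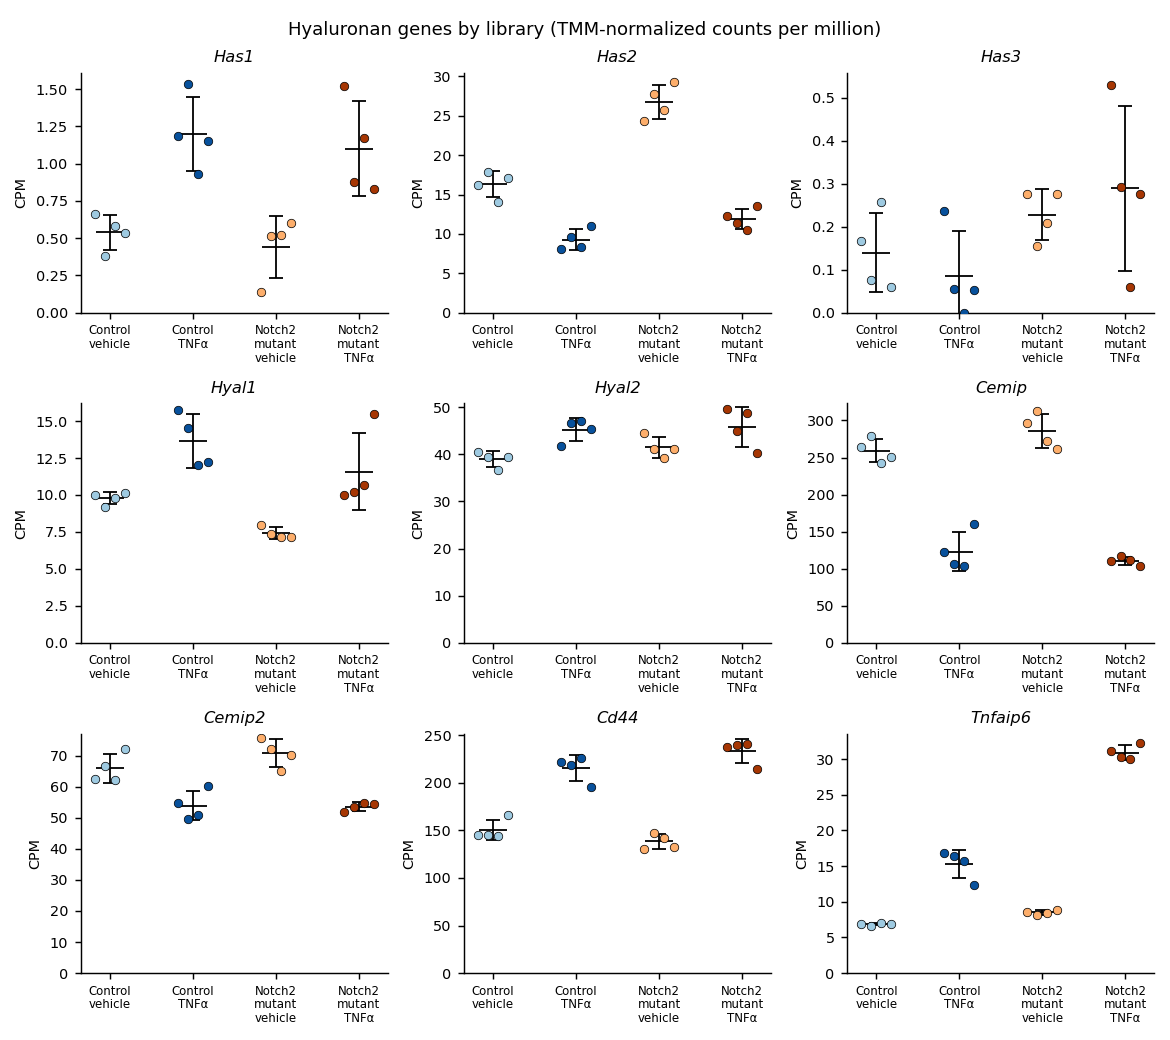
Level of each of the 9 genes in CPM (vertical axes from 0) in the 16 libraries, by group; points are libraries and bars the mean ± SD of 4. *Has2*, *Cemip* and *Cemip2* are lower with TNFα in both genotypes, *Has1*, *Hyal1*, *Cd44* and *Tnfaip6* are higher, and *Tnfaip6* in *Notch2*tm1.1Ecan TNFα cells lies at 29.9 to 32.3 CPM against 12.4 to 16.8 CPM in control TNFα cells.

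Among the genes of turnover, *Cemip* and *Cemip2* fell with TNFα and *Hyal1* rose, in both genotypes. *Cemip* (chr7:83582065-83735724, minus strand) was at 265, 279, 243 and 250 CPM in control vehicle libraries and at 122, 106, 103 and 161 CPM in control TNFα libraries. The *Notch2*tm1.1Ecan libraries were at 297, 312, 272 and 261 CPM with vehicle and at 110, 117, 112 and 104 CPM with TNFα. Control TNFα replicate 4 was the highest of the TNFα libraries, and the treatment groups did not overlap.

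The log2 fold change of *Cemip* with TNFα was -1.07 in control cells (SE 0.15, adjusted p = 0.00123) and -1.36 in *Notch2*tm1.1Ecan cells (SE 0.066, adjusted p = 8.48e-16). Without both replicate 4 control libraries the log2 fold change in control cells was -1.24. Its differences between genotypes were 0.15 with vehicle (adjusted p = 0.130) and -0.14 with TNFα (adjusted p = 0.650), and the second became 0.023 without control TNFα replicate 4. The TNFα effects differed by -0.29 (95% interval -0.60 to 0.023, adjusted p = 0.665).

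*Cemip2* (chr19:21755657-21836114, plus strand) was at 62.3 to 72.2 CPM in control vehicle and 49.7 to 60.3 CPM in control TNFα libraries. It was at 65.2 to 75.8 CPM in *Notch2*tm1.1Ecan vehicle and 51.9 to 54.7 CPM in *Notch2*tm1.1Ecan TNFα libraries. The change with TNFα was small and groups did not overlap: -0.28 in control cells (SE 0.067, adjusted p = 0.00155) and -0.40 in *Notch2*tm1.1Ecan cells (SE 0.067, adjusted p = 1.63e-05). With TNFα the genotypes differed by -0.0012 (95% interval -0.14 to 0.14).

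*Hyal1* (chr9:107454126-107458909, plus strand) was at 10.0, 9.21, 9.78 and 10.1 CPM in control vehicle and 15.8, 14.5, 12.0 and 12.2 CPM in control TNFα libraries. The *Notch2*tm1.1Ecan libraries were at 7.99, 7.34, 7.16 and 7.16 CPM with vehicle and 9.99, 10.2, 10.6 and 15.4 CPM with TNFα. Every TNFα library was above every vehicle library of its genotype, and with vehicle the *Notch2*tm1.1Ecan libraries were all below the control libraries. The value of 15.4 CPM is that of the shallowest library and rests on 56 counts.

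The rise of *Hyal1* with TNFα was 0.48 in control cells (SE 0.11, adjusted p = 0.00108) and 0.57 in *Notch2*tm1.1Ecan cells (SE 0.13, adjusted p = 0.000528). With vehicle *Hyal1* was lower in *Notch2*tm1.1Ecan cells (log2 fold change -0.40, SE 0.11, adjusted p = 0.0183). That call was lost without control vehicle replicate 1 (adjusted p = 0.0504) and without *Notch2*tm1.1Ecan vehicle replicate 4 (adjusted p = 0.0612). With TNFα the difference was -0.31 (SE 0.13, adjusted p = 0.149), and without *Notch2*tm1.1Ecan TNFα replicate 4 it was -0.40 and passed (adjusted p = 0.0291). *Hyal1* overlaps *Naa80* on the same strand by 2824 bases, and *Naa80* held 5723 counts over the 16 libraries against 2800 for *Hyal1*. *Hyal3*, with 45 counts, also overlaps *Hyal1* on the same strand, by 1810 bases. How the counting treated fragments in shared bases is not given, and the level of *Hyal1* is uncertain to that extent.

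*Hyal2* (chr9:107445086-107450171, plus strand) changed little. It was at 36.7 to 40.5 CPM in control vehicle and 41.7 to 47.0 CPM in control TNFα libraries, a rise of 0.22 on the log2 scale (SE 0.061, adjusted p = 0.00515) with no overlap. In *Notch2*tm1.1Ecan cells it was at 39.1 to 44.5 CPM with vehicle and 40.3 to 49.6 CPM with TNFα, the groups overlapped, and the log2 fold change of 0.17 did not pass (SE 0.074, adjusted p = 0.0677). It passed without *Notch2*tm1.1Ecan vehicle replicate 1 (adjusted p = 0.00622) or *Notch2*tm1.1Ecan TNFα replicate 4 (adjusted p = 0.0164), with a stricter filter on low counts (adjusted p = 0.0296), and in a fit to all 16 libraries (adjusted p = 0.0488). The TNFα effects in the 2 genotypes differed by -0.047 (95% interval -0.24 to 0.14), and the genotypes by 0.094 with vehicle and 0.050 with TNFα.

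*Cd44*, the principal hyaluronan receptor (chr2:102641486-102732010, minus strand), rose with TNFα in both genotypes. It was at 145, 146, 144 and 166 CPM in control vehicle and 222, 219, 226 and 196 CPM in control TNFα libraries. The *Notch2*tm1.1Ecan libraries were at 131, 148, 142 and 133 CPM with vehicle and 238, 240, 241 and 215 CPM with TNFα. Control vehicle replicate 4 was the highest of its group and control TNFα replicate 4 the lowest of its own, and the treatment groups did not overlap.

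The rise of *Cd44* was 0.53 in control cells (SE 0.060, adjusted p = 2.09e-07), which was 0.63 without both replicate 4 libraries, and 0.76 in *Notch2*tm1.1Ecan cells (SE 0.062, adjusted p = 5.71e-11). Between genotypes it differed by -0.11 with vehicle (95% interval -0.22 to 0.0026, adjusted p = 0.280) and by 0.13 with TNFα (0.0098 to 0.25, adjusted p = 0.215). The difference of the TNFα effects was 0.23 (adjusted p = 0.350), and 0.14 without both replicate 4 control libraries.

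*Tnfaip6* (chr2:51927998-51946698, plus strand) rose with TNFα in both genotypes, and to a higher level in *Notch2*tm1.1Ecan cells. It was at 6.91, 6.62, 7.08 and 6.84 CPM in control vehicle and 16.8, 16.4, 15.7 and 12.4 CPM in control TNFα libraries. In *Notch2*tm1.1Ecan cells it was at 8.61, 8.16, 8.35 and 8.86 CPM with vehicle and 31.2, 30.2, 29.9 and 32.3 CPM with TNFα. None of the 4 groups overlapped another, and control vehicle replicate 4, which stood apart in the response genes, was within the range of its group.

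TNFα raised *Tnfaip6* by 1.16 on the log2 scale in control cells, or 2.23-fold (SE 0.11, adjusted p = 3.02e-08), and by 1.85 in *Notch2*tm1.1Ecan cells, or 3.61-fold (SE 0.088, adjusted p = 5.47e-16). The difference of the 2 effects was 0.70 (SE 0.14, 95% interval 0.42 to 0.98, adjusted p = 0.00966), and when single libraries were dropped it was 0.61 to 0.74, with adjusted p values of 0.00756 to 0.0331. Without both replicate 4 control libraries it was 0.61 (adjusted p = 0.0273). With TNFα the *Notch2*tm1.1Ecan cells exceeded control cells by 1.02, or 2.03-fold (SE 0.094, adjusted p = 6.88e-09), and by 0.93 without control TNFα replicate 4. With vehicle the difference was 0.31 (SE 0.11, adjusted p = 0.0830), which did not pass although the libraries of the 2 groups did not overlap. The macrophage marker sums given above were also higher in *Notch2*tm1.1Ecan cells with either treatment, and their part in the *Tnfaip6* difference was not tested.

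**Figure D3:**
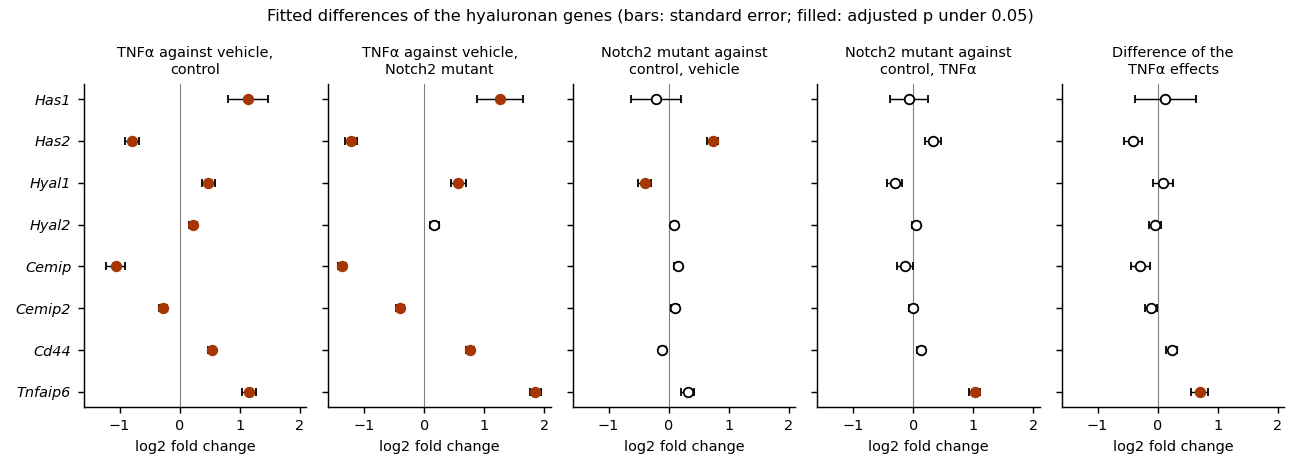
Fitted log2 fold changes of 8 of the genes (points) with their SE (bars) in the 4 group comparisons and for the difference of the TNFα effects, filled where the adjusted p passed. *Has3* is left out because control TNFα libraries held at most 3 counts; filled points are numerous for TNFα, and in the last panel *Tnfaip6* at 0.70 is the one filled point.

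By counts, 8 of the 9 members were called with TNFα in control cells, 5 higher and 3 lower, with or without the replicate 4 libraries, where 44.2% of 19338 genes tested were called, 23.3% higher and 20.9% lower. The libraries of the 2 groups did not overlap for those 8, and for 41.8% of all genes. Among *Notch2*tm1.1Ecan cells 7 were called, 4 higher and 3 lower, against 44.5% of 19633 genes, 22.6% higher and 21.9% lower, and the groups of those 7 did not overlap, as for 40.2% of all genes. Between genotypes with vehicle *Has2* was called higher and *Hyal1* lower, 2 of 9 where 10.5% of all genes were called, 6.19% higher and 4.35% lower. *Has2*, *Hyal1* and *Tnfaip6* did not overlap between these groups, and 16.2% of all genes did not. With TNFα *Tnfaip6* was the 1 called, where the share was 9.97%, 5.63% higher and 4.33% lower, and the 1 without overlap, where the share was 14.8%. The interaction called 1 member, *Tnfaip6*, where it called 0.474% of 21321 genes, 0.267% higher and 0.206% lower. When the log2 fold change also had to reach 1 or -1, 3 members passed for TNFα in control cells (11.8% of all genes), 4 in *Notch2*tm1.1Ecan cells (13.9%) and 1 between genotypes with TNFα (1.42%). *Has1*, *Cemip* and *Tnfaip6* were the 3, *Has2* joined them in the mutant, and *Tnfaip6* was the 1. By that rule edgeR called 0 members between genotypes with vehicle, where it called 1.26% of all genes, and 0 for the interaction, where it called 0.0469%. At an unadjusted p under 0.05 and with no fold rule these comparisons had 4 and 3 members, and the share of all genes at that p was not counted. DESeq2 called 2 and 1 members at its adjusted p, where it called 2123 of 15218 and 174 of 14227 genes given one.

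Without both replicate 4 control libraries the log2 fold change with TNFα in control cells was 1.14 for *Has1*, 0.54 for *Hyal1*, 0.22 for *Hyal2*, -0.30 for *Cemip2* and 1.25 for *Tnfaip6*, and all 5 still passed. For *Acan*, *Hapln1* and *Ugdh*, described next, it was -1.51, -1.31 and -1.09, and all 3 passed. Without control vehicle replicate 4 the difference between genotypes with vehicle was 0.75 for *Has2* and -0.40 for *Hyal1*, which both passed (adjusted p = 2.92e-06 and 0.0228), and 0.31 for *Tnfaip6*, which did not (adjusted p = 0.106). Without control TNFα replicate 4 the members called between genotypes with TNFα were 2, *Tnfaip6* and *Has2*, where 2054 of 18803 genes were called.

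The median log2 fold change of the 9 was 0.22 for TNFα in control and 0.30 in *Notch2*tm1.1Ecan cells, and 0.039 and 0.026 for all genes. Between genotypes it was 0.11 with vehicle and 0.050 with TNFα, and -0.0020 and -0.012 for all genes. None of the 4 medians moved when *Has3* was set at its bound in control TNFα cells.

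The wider list held 35 genes of hyaluronan biology, of which 29 were tested. With TNFα 6 of the 29 rose and 11 fell in control cells, where 23.3% of all genes were called higher and 20.9% lower. Of the 29 genes 7 rose and 11 fell in *Notch2*tm1.1Ecan cells, where 22.6% of all genes were called higher and 21.9% lower. The list's median log2 fold change was -0.53 and -0.41, against 0.039 and 0.026 for all genes, and -0.43 and -0.25 with genes under the count limit at their bound. Genes of precursor synthesis fell, 6 of 8 in either genotype: *Gfpt1*, *Gnpnat1*, *Pgm3* and *Uap1*, which lead to UDP-N-acetylglucosamine, and *Ugp2* and *Ugdh*, which lead to UDP-glucuronic acid.

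*Ugdh* was at 211 to 238 CPM in control vehicle and 107 to 138 CPM in control TNFα libraries. Its log2 fold change was -0.96 in control cells (SE 0.073, adjusted p = 3.96e-08) and -0.96 in *Notch2*tm1.1Ecan cells (SE 0.063, adjusted p = 6.00e-13). *Ugp2* fell by 0.88 in control cells (adjusted p = 2.57e-11). *Gfpt2*, the second isoform of the entry enzyme to the hexosamine pathway, passed in *Notch2*tm1.1Ecan cells with a rise of 0.22 (adjusted p = 0.0175) and in control cells was at -0.17. That call was lost in 3 of the 8 fits with a library left out, those without vehicle replicate 2, vehicle replicate 3 and TNFα replicate 1 (adjusted p up to 0.0742), and its TNFα effects differed by 0.39 (adjusted p = 0.0934).

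Of the proteoglycans and link proteins that assemble on hyaluronan, 4 of 7 tested fell with TNFα in either genotype. Of all genes, 20.9% were called lower in control and 21.9% in *Notch2*tm1.1Ecan cells. *Acan*, which encodes aggrecan, was at 1551 to 1748 CPM in control vehicle and 537 to 898 CPM in control TNFα libraries, and at 971 to 1099 and 356 to 381 CPM in *Notch2*tm1.1Ecan cells. Its log2 fold change with TNFα was -1.33 in control (SE 0.17, adjusted p = 0.000944) and -1.49 in *Notch2*tm1.1Ecan cells (SE 0.058, adjusted p = 7.55e-18). *Hapln1*, the cartilage link protein gene, fell in both, with log2 fold changes of -1.15 (adjusted p = 0.000109) and -1.52 (adjusted p = 4.98e-05).

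*Bcan*, which encodes brevican, was low, at 3.51 to 4.48 CPM in control vehicle libraries, and fell in both genotypes (log2 fold change -1.21, adjusted p = 1.92e-05, and -1.23, adjusted p = 0.000121). *Hapln4*, another link protein gene, had log2 fold changes of -0.84 (adjusted p = 0.00113) and -1.03 (adjusted p = 0.00243), with overlap in *Notch2*tm1.1Ecan cells. *Vcan*, the gene of versican, rose in *Notch2*tm1.1Ecan cells by 0.52 (adjusted p = 0.0427), a call lost in 5 of the 8 fits with a library left out (adjusted p up to 0.0978; vehicle replicates 3 and 4 and TNFα replicates 1, 3 and 4). *Acan* and *Hapln1* also belong to the chondrocyte markers above.

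*Ptx3*, which encodes a pentraxin that binds TSG-6 and the heavy chains in hyaluronan matrices, was at 574 to 674 CPM in control vehicle and 1034 to 1135 CPM in control TNFα libraries. In *Notch2*tm1.1Ecan cells it was at 885 to 898 CPM with vehicle and 1839 to 2019 CPM with TNFα. No library of one group overlapped another group. TNFα raised it by 0.82 in control cells (SE 0.050, adjusted p = 1.90e-10) and by 1.11 in *Notch2*tm1.1Ecan cells (SE 0.055, adjusted p = 1.55e-15). The difference of these effects was 0.29 (95% interval 0.15 to 0.44) and did not pass (adjusted p = 0.0646). In the DESeq2 fit *Ptx3* was the 1 gene of the wider list to pass. In edgeR none of the 29 passed, and 2, *Ptx3* and *Gfpt2*, had an unadjusted p under 0.05.

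Of the receptors *Stab1* and *Layn*, the layilin gene, rose with TNFα in either genotype and *Hmmr* fell, 3 of 5 tested. Of all genes, 44.2% were called with TNFα in control and 44.5% in *Notch2*tm1.1Ecan cells. *Layn* rose by 0.61 in control cells (adjusted p = 3.38e-06) and by 0.77 in *Notch2*tm1.1Ecan cells (adjusted p = 8.08e-09). *Stab1* rose by 0.39 (adjusted p = 0.0138) and by 0.40 (adjusted p = 0.000425), and the first call was lost without control vehicle replicate 1 or control TNFα replicate 2. *Hexa*, a lysosomal enzyme gene, rose in control cells by 0.30 (adjusted p = 1.82e-05). In *Notch2*tm1.1Ecan cells it was at 0.11, which did not pass (adjusted p = 0.242), and the groups overlapped. *Itih5*, of the inter-alpha-inhibitor heavy chain family, rose by 0.53 in control (adjusted p = 1.22e-05) and by 0.44 in *Notch2*tm1.1Ecan cells (adjusted p = 2.09e-06). With *Ptx3*, 2 of 5 binding proteins tested rose in either genotype, where 23.3% and 22.6% of all genes were called higher.

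In the genotype comparison with vehicle 8 of the 29 genes of the wider list were called, 3 of them higher in the mutant, where 10.5% of all genes were called. With TNFα 5 of the 29 were called, 2 of them higher, where the share of all genes was 9.97%. The list's medians were -0.019 and 0.013, against -0.0020 and -0.012 for all genes, and with genes at their bound the second was -0.021. *Stab1*, which encodes a scavenger receptor of sinusoidal endothelium and macrophages, was at 7.35 to 9.64 CPM in control and 15.7 to 18.5 CPM in *Notch2*tm1.1Ecan vehicle libraries. It was higher in *Notch2*tm1.1Ecan cells by 1.06 with vehicle (SE 0.10, adjusted p = 1.04e-07) and by 1.08 with TNFα (SE 0.10, adjusted p = 8.21e-09). The macrophage and endothelial marker sums moved the same way, and their part was not tested.

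*Ptx3* was higher by 0.55 with vehicle (adjusted p = 6.78e-08) and by 0.85 with TNFα (adjusted p = 5.91e-11). *Acan* was lower, with log2 fold changes of -0.68 with vehicle (adjusted p = 2.11e-09) and -0.82 with TNFα (adjusted p = 0.0195). The second call was lost without *Notch2*tm1.1Ecan TNFα replicate 1 (adjusted p = 0.0573) or 4 (adjusted p = 0.0714). *Hapln1* was lower too, at -1.03 with TNFα (adjusted p = 6.53e-05) and -0.67 with vehicle (adjusted p = 0.0433), and the latter call was lost in 7 of the 8 fits with a library left out (all but the one without *Notch2*tm1.1Ecan vehicle replicate 1).

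*Itih2*, which encodes a heavy chain of inter-alpha-inhibitor, the substrate of TSG-6, was lower, with log2 fold changes of -0.35 with vehicle (adjusted p = 4.96e-05) and -0.29 with TNFα (adjusted p = 0.00230). With vehicle *Gfpt2* was lower at -0.30 (adjusted p = 0.00462) and *Ugdh* at -0.17 (adjusted p = 0.0428), the latter lost in 5 of the 8 fits with a library left out. *Hmmr*, which encodes a hyaluronan-binding protein of dividing cells, was higher by 0.24 with vehicle (adjusted p = 0.0196), but the groups overlapped. The *Hmmr* call was lost in 5 of the 8 fits with a library left out (adjusted p up to 0.124). All 16 chondrocyte markers were lower in the same comparisons, as given above.

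**Figure D4:**
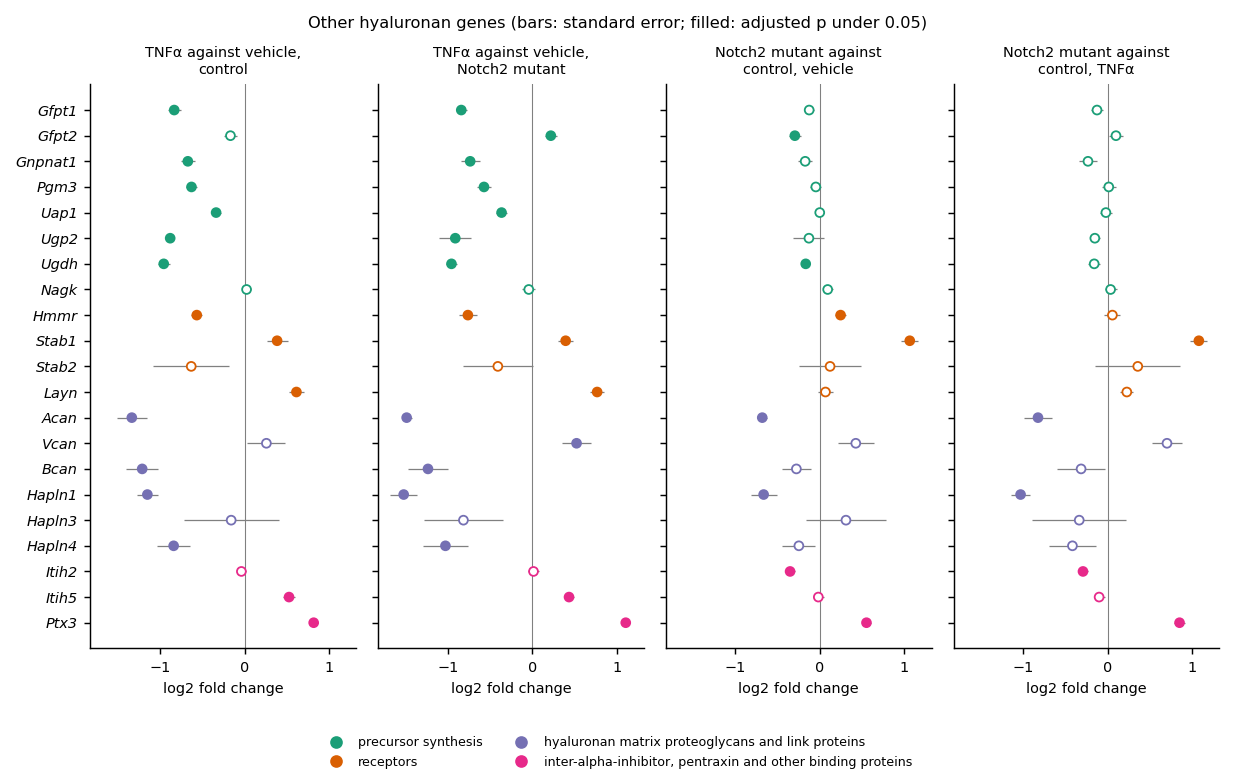
Fitted log2 fold changes (points) with their SE (bars) for 21 other hyaluronan genes of 4 lists (precursor synthesis, receptors, proteoglycans and link proteins, binding proteins) in the 4 group comparisons, coloured by list and filled where the adjusted p passed. With TNFα most precursor synthesis genes and the aggrecan and link protein genes called lie to the left, *Ugdh* at -0.96 and *Acan* at -1.33 in control cells, and between genotypes *Stab1* and *Ptx3* lie to the right.

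For each member at 1 CPM or more, the genes whose log2 level ran most alike over the 16 libraries were ranked by Pearson's r among 13431 genes. For *Tnfaip6* these were *Slc29a1*, a nucleoside transporter (r = 0.988), *Hp*, the gene of haptoglobin (r = 0.985), and *Adamts15*, a matrix protease (r = 0.980). For *Cemip* they were *Thbs1* (r = 0.993), *Cyp26b1* (r = 0.992) and *Dio3* (r = 0.992), and for *Cd44* *Gsap* (r = 0.990), *F2rl1* (r = 0.989) and *Cyria* (r = 0.988). *Has2* ran most like *Fam83d* (r = 0.982), *Hoxc13* (r = 0.979) and *B3galnt1* (r = 0.975), and *Cemip2* most like *Myo10* (r = 0.970), *Rara* (r = 0.952) and *Gse1* (r = 0.952). The closest genes to *Hyal1* and *Hyal2* were *Gm15559* (r = 0.950) and *Scand1* (r = 0.939). The libraries share their treatment and genotype groups, and TNFα separated them, so that many genes reach a high r.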

How the data were processed

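The authors trimmed the reads, mapped them with HISAT2 and counted them with HTSeq, and deposited 1 file of whole-number counts per library, without normalization. The submitters' processing notes name HISAT2 2.1.0 and SAMtools 1.9 on GRCm38, whereas the study's methods name another HISAT2 version and GRCm39, and gene identifiers alone were used to join. Names, positions and exon lengths are from GENCODE M39 (GRCm39), which lacks 665 of the identifiers (0.018% of counts). The 5 entries that name no gene (8.81 to 12.1% of fragments) were left out.

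Counts were analyzed with edgeR 4.0.16 (quasi-likelihood test, robust, TMM normalization, at least 10 counts summed) in R 4.3.3 on the 8 libraries of each comparison, or all 16 for the interaction. Adjusted p values are Benjamini-Hochberg values over all genes tested, called under 0.05, and fold changes are log2. CPM use TMM factors over all 16 libraries. Scripts were first tested on simulated counts in which 200 genes had known fold changes.

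Replicates differed beyond sampling noise in every pair (chi-square per degree of freedom 2.14 to 16.0). Intervals and the limit of 3 counts cover counting error only or, where from 1.96 SE, the fit. The factor 1.96 is that of a normal distribution, so these intervals can be narrower than the quasi-likelihood test would give. Figures were drawn with matplotlib 3.10.9. The members, the wider lists (named in the text) and the marker lists were chosen with earlier results of these data known. All members were named in the text, and of the wider lists up to 6 called genes with the largest log2 fold change per comparison, and other called genes of those lists were named after their values were seen. 1 gene of those lists is not reported here. The genes most alike were the 3 with the highest r (log2 of CPM + 1). The alternatives were DESeq2 1.42.0, RLE normalization, other filters and thresholds, 1 joint fit to the 16 libraries, a block for replicate number, plain CPM, and libraries left out.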

Additional observations from a re-analysis of the deposited data

Results flagged for a closer look

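Of 36 tests for a library far from the other 3 of its group (the 9 genes in 4 groups), 3 were positive, where chance gives about 1 in 20. *Hyal1* reached 15.4 CPM in *Notch2*tm1.1Ecan TNFα replicate 4, against 9.99 to 10.6 CPM in the others. *Cd44* in the same library was at 215 CPM and the other 3 at 238 to 241 CPM. This is the shallowest library. *Cd44* in control vehicle replicate 4 was at 166 CPM and the other 3 at 144 to 146 CPM. That library was also high in the TNFα response genes. The TNFα effect on *Tnfaip6* differed between genotypes by 0.70 on the log2 scale (edgeR's quasi-likelihood test of the interaction, adjusted p = 0.00966), with each *Notch2*tm1.1Ecan TNFα library above each control TNFα library.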

How the results depend on the processing

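Of 792 results of the members under alternatives, 755 kept their direction and side of the threshold, 14 lost a call, 8 gained one and 15, none of them called, changed sign. Requiring a log2 fold change of 1 left 3 members called for TNFα in control cells, 4 in *Notch2*tm1.1Ecan cells, 0 between genotypes with vehicle (2 at the adjusted p alone) and 0 for the interaction (1 at the adjusted p alone, by edgeR and DESeq2). Of all genes, 11.8%, 13.9%, 1.26% and 0.0469% passed that rule in these comparisons, in the same order. With each library left out, 1 to 2 members were called between genotypes with vehicle and 1 to 2 with TNFα. Those fits called from 1578 of 18627 to 2666 of 19230 genes with vehicle. With TNFα they called from 1458 of 18821 to 2054 of 18803 genes.

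The sign changes with TNFα between genotypes were in *Cemip2* (0.0032 with DESeq2, 0.0028 with RLE normalization, 0.011 with the filter of filterByExpr, -0.042 to 0.058 with a library left out), *Cemip* (-0.23 to 0.023 with a library left out) and *Has1* (-0.26 to 0.086). Leave-one-out values of *Has1* were also -0.43 to 0.013 between genotypes with vehicle and -0.082 to 0.35 for the interaction, and those of *Has3* were -0.30 to 0.72 for TNFα in *Notch2*tm1.1Ecan cells. The causes were not tested.

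Deviations from the group means correlated at -0.20 to 0.16 between libraries of the same replicate number and at -0.19 to 0.16 between others. For TNFα and vehicle libraries of the same number they were -0.20 to 0.070 in control and 0.015 to 0.16 in *Notch2*tm1.1Ecan cells. With 4 libraries per group these values cannot settle whether the numbers mark pairs. With the replicate number as a block the members called stayed at 8, 7, 2, 1 and 1 in the 5 comparisons. Over all genes the block fits called 8207 of 19338, 8772 of 19633, 2072 of 19432, 1741 of 19227 and 74 of 21321. With the block *Cemip2* became 0.016 with TNFα between genotypes, and of 68 gene results *Hapln1* with vehicle lost its call (adjusted p = 0.148). Plain CPM moved no group mean of the 9 members by 1 SD. Depth limits *Has1* and *Has3* most.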
